A study of Mus musculus with 6 samples.

Results

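The respiratory chain and its uncoupling proteins were followed here as a set of 89 nuclear genes in the postnatal day 7 (P7) mouse retina. The members were taken by symbol: those starting with Nduf (complex I and its assembly factors), Uqcr (complex III), Atp5 (complex V) or Cox followed by a digit from 4 to 8 (complex IV), together with *Sdha*, *Sdhb*, *Sdhc* and *Sdhd* (complex II), *Cyc1* (complex III) and *Ucp1*, *Ucp2* and *Ucp3*. Of the 21744 genes in the table, 95 had such a symbol, and 89 reached a mean of 1 FPKM (fragments per kilobase of transcript, scaled to library size) over the 6 libraries and were kept. The rule uses symbols and the mean level over all libraries. *Cox4i1*, the general form of complex IV subunit 4, was not analysed here.

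The series compared retinas without the LIM-homeodomain transcription factor LHX4, which is needed for bipolar cell development, with control retinas. Each of the 6 libraries was made from the retinas of 1 mouse, after the retinal pigment epithelium had been dissected away. There were 3 control mice and 3 mice titled Lhx4 Mutant, which the study calls *Lhx4* null. All animals were on a mixed C57BL/6J; 129S6 background and of either sex. The null genotype is described in the study as *Lhx4* tdT/loxP with *Six3-Cre*, a Cre line that recombines in the retina, and the controls in its functional tests as wild type or *Lhx4* loxP/+. The sample labels do not give the alleles of single animals. *Lhx4* itself was read at 20.9, 23.8 and 19.1 FPKM in the controls. In the mice titled Lhx4 Mutant it was read at 31.2, 30.3 and 29.0 FPKM, so its gene-level value was higher where the gene was inactivated. Which exons the fragments came from cannot be seen in an FPKM summed over a gene. The group is therefore written with the study's term, as the libraries labelled *Lhx4* null, or null libraries for short. Whole retinas were sequenced, so fewer cells of a type and less RNA per cell cannot be told apart. Retinal markers were abundant in every library: 10 rod markers summed to 3487 to 4050 FPKM in the controls and 2797 to 3752 FPKM in the null libraries, and 12 bipolar markers summed to 913 to 1002 and 683 to 801 FPKM. Depth per library is not recorded in the table, and the smallest steps of the low values gave relative depths from 46.7% to 100% of the deepest library, with the 3 libraries labelled *Lhx4* null (46.7%, 57.5% and 65.9%) below the controls (95.7%, 76.9% and 100%), so depth and genotype cannot be told apart.

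The respiratory chain sits in the inner mitochondrial membrane. Complex I takes electrons from NADH and complex II from succinate, and ubiquinone carries them to complex III, from which cytochrome c takes them to complex IV, where oxygen is reduced. Complexes I, III and IV pump protons, complex V makes ATP as the protons flow back, and uncoupling proteins are carriers of the same membrane, of which UCP1 lets protons return without ATP synthesis. Photoreceptors of the mature retina hold densely packed mitochondria in their inner segments and are among the heaviest users of oxygen in the body.

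The messages of the 5 complexes were nearly level between genotypes, and 1 member, *Ucp2*, rose in the libraries labelled *Lhx4* null. Over the 89 members the median log2 difference (null minus control, on log2(FPKM + 0.1)) was -0.062, beside 0.011 over the 15200 genes tested. With limma and Benjamini-Hochberg adjustment over all genes tested, 0 members were lower at an adjusted p under 0.05, where 0.138% of all genes were, and 1 was higher, where 0.0855% of all genes were. At an unadjusted p under 0.05, 1 member was lower (*Cox6c*), where 3.55% of all genes were, and 1 was higher (*Ucp2*), where 4.6% were. The 3 libraries of the groups did not overlap for 2 members that were lower (*Cox6c*, *Sdha*), or 2.25%, where 6.13% of all genes were, and for 2 that were higher (*Ucp2*, *Ndufa10*), where 8.1% of all genes were. In each of these counts other than the adjusted one for higher genes, the share of members was at or below that of all genes.

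The size of a difference that could have gone unseen was small for most of the set. The 95% confidence interval of the difference lay inside 1.5-fold in either direction for 86 of the 89 members (96.6%), and for 71.7% of all genes tested. The 3 exceptions were *Ucp2*, *Ndufa4l2* and *Cox7a1*. Among the 80 structural subunits of complexes I to V, 76 had a difference smaller than 0.2 on the log2 scale, and the median interval reached 0.213 to either side of the estimate. The sign was uneven: 68 of 89 members (76.4%) had a difference below 0, compared with 46.7% of all genes. Genes of 1 pathway are not independent of each other. With single libraries left out, the share of members below 0 ran from 66.3% (without null 1) to 86.5% (without control 2). The shares of all genes in these fits were 45.2% and 47.4%. The size of the differences depended on single libraries, as the library medians below show.

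**Figure D1:**
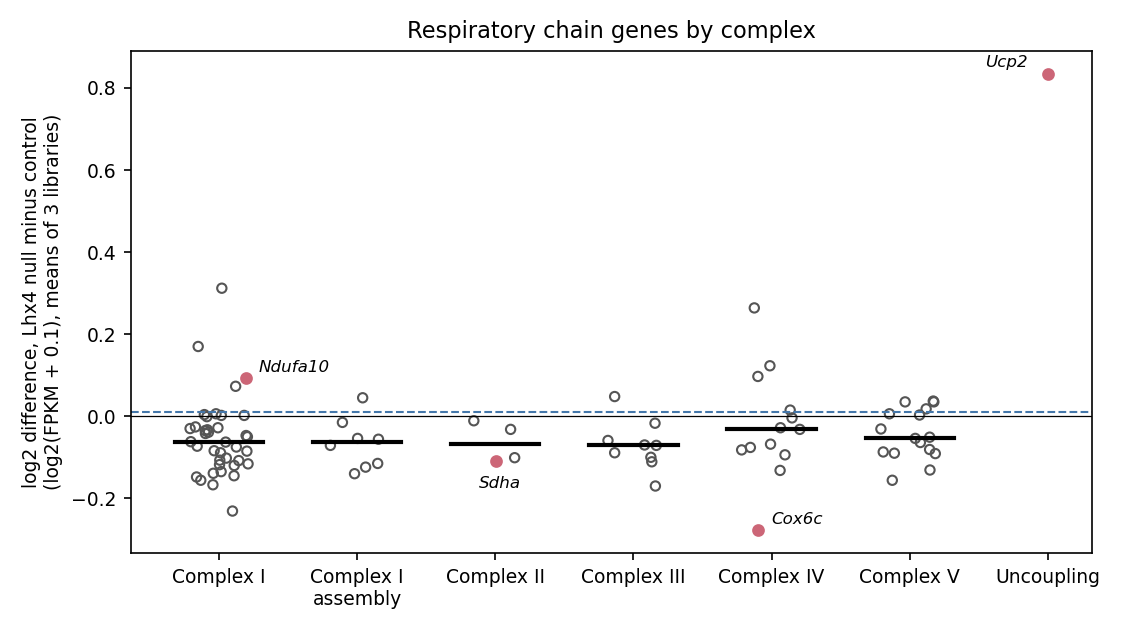
Log2 difference of each of the 89 members (null minus control, log2(FPKM + 0.1)), grouped by complex. Horizontal black bars are the medians of each group, the dashed line is the median of all 15200 genes tested (0.011), and filled points are the 4 members whose libraries did not overlap between groups. The medians of the complexes lie between -0.071 and -0.032, and *Ucp2* stands apart at 0.835.

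*Ucp2* encodes uncoupling protein 2, an inner membrane carrier expressed in many tissues and known in immune cells and in the nervous system. The gene lies on chromosome 7 (GRCm38 chr7:100493337-100502020, plus strand), next to *Ucp3*. It was read at 4.69, 5.52 and 4.41 FPKM in the controls and at 9.07, 8.84 and 8.31 FPKM in the null libraries. Every null library was above every control, and the lowest null value was well clear of the highest control. Over the 6 libraries *Ucp2* ran in the reverse order of relative depth, from control 3 (100%, 4.41 FPKM) to null 1 (46.7%, 9.07 FPKM). This order also held inside each group. Depth and genotype cannot be told apart here, and the part of depth in the *Ucp2* difference was not tested. The group means were 4.87 ± 0.575 and 8.74 ± 0.386 FPKM (SD, n = 3 each), a ratio of 1.79. The log2 difference was 0.835 (SE 0.108, 95% interval 0.588 to 1.083), with an adjusted p of 0.0306 in limma, and the gene ranked 23 by p among all genes tested. The exact two-sided permutation test of the 3 against 3 libraries gave p = 0.1, the smallest it can give. The call was sensitive to the number of libraries: the adjusted p in limma was 0.138 without control 1, 0.0267 without control 2, 0.13 without control 3, 0.0739 without null 1, 0.1505 without null 2 and 0.0896 without null 3, with differences from 0.769 to 0.927. It was also 0.0811 with no filter on low values and 0.0735 with no mean-variance trend, and the difference was between 0.734 and 0.847 over all settings that kept the 6 libraries.

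Several lists of markers of other cells had most log2 differences above 0, as *Ucp2* did. Of the 15200 genes tested, 8104 were above 0. Other lists went the other way: 10 of 12 bipolar, 9 of 10 rod, 7 of 9 pericyte and smooth muscle and 4 of 5 endothelial markers were below 0. The 6 markers of heart or slow muscle summed to 1.573 to 2.12 FPKM in the controls and 2.245 to 3.221 FPKM in the null libraries, with all 4 tested above 0. The 9 markers of microglia and macrophages summed to 30.1, 35.4 and 34.6 FPKM in the controls and to 40.3, 34.1 and 46.7 FPKM in the null libraries, with 7 of 9 above 0 in log2 difference and overlapping sums. The 6 markers of pigment epithelium and melanocytes summed to 18.9, 16.8 and 9.94 FPKM and to 19.9, 27.6 and 35.7 FPKM, with 6 of 6 above 0 and no overlap. The 7 amacrine markers were all above 0, with sums of 390 to 417 and 431 to 481 FPKM. The 6 Muller glia markers summed to 539 to 610 and 641 to 691 FPKM (5 of 6 above 0) and the 8 cone markers to 349 to 495 and 558 to 676 FPKM (6 of 8 above 0), both with no overlap. Of the Muller markers, only *Apoe* had groups without overlap (272 to 301 and 356 to 388 FPKM). Of the cone markers, 4 were higher with no overlap, and *Arr3* (-1.267) and *Opn1mw* (-1.775) were lower with no overlap. *Gngt2*, the largest part of the cone sum, had overlapping groups. The 5 markers of cycling cells were all above 0, with overlapping sums of 7.65 to 16.7 and 9.60 to 29.1 FPKM. The part of these cells in the *Ucp2* difference was not tested. Within the null libraries *Ucp2* was highest in null 1 and lowest in null 3, while the pigment markers were lowest in null 1 and highest in null 3. Among the controls, control 3 was lowest for both. These orders rest on 3 libraries per group and were not tested.

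The other uncoupling proteins were near the floor. *Ucp1*, the uncoupling protein of brown fat, was read at 0.279, 0.441 and 0.320 FPKM in the controls and at 0.573, 0.775 and 0.701 FPKM in the null libraries. Its groups did not overlap either, and its difference was 0.818 (SE 0.221), with an adjusted p of 0.381 in limma. With a mean of 0.515 FPKM it was not a member. *Ucp3*, the form of skeletal muscle, was read at 0.0472 to 0.102 FPKM in the 6 libraries and was below the level tested. Of 5 adipocyte markers, *Elovl3* was listed at 0 in every library, *Adipoq* and *Plin1* were below 0.1 FPKM on average, *Fabp4* was read at 0.761 to 2.40 FPKM with overlapping groups, and *Cidea*, a gene of brown fat, was read at 0.385, 0.379 and 0.395 FPKM in the controls and 0.454, 0.368 and 0.0798 FPKM in the null libraries.

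**Figure D2:**
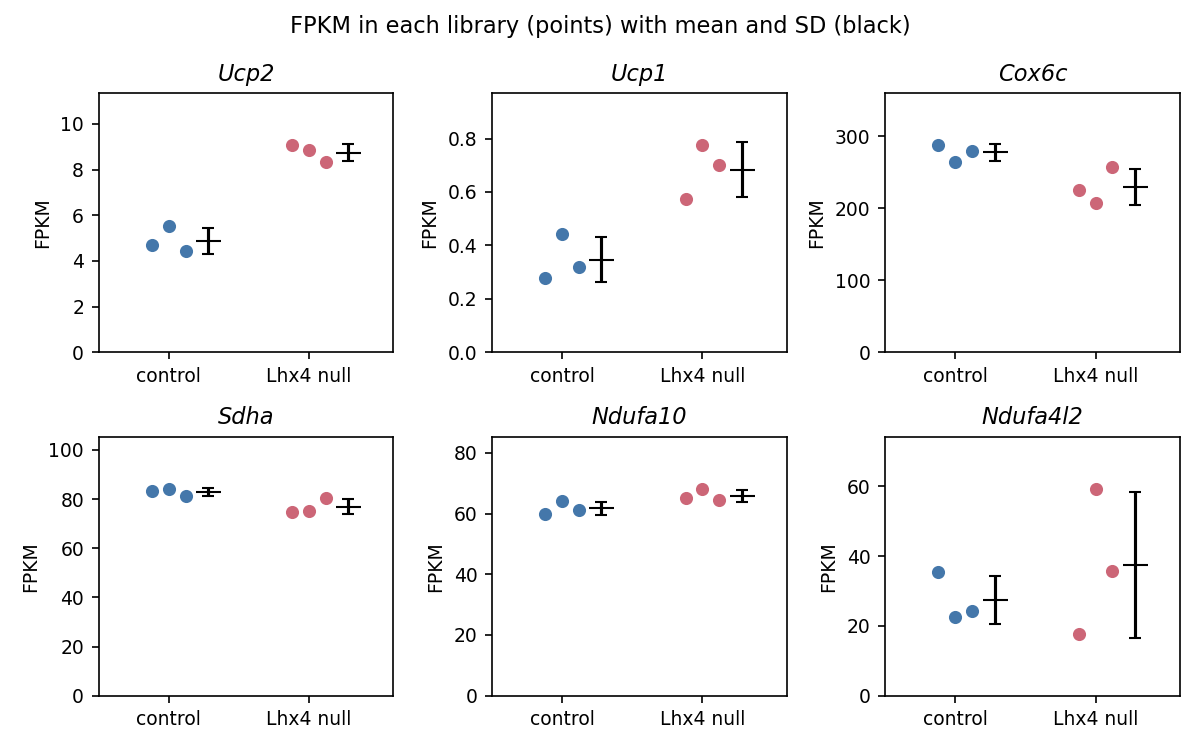
FPKM in each library for 6 genes, with the group mean and SD (n = 3) in black; all axes start at 0. *Ucp2* and *Ucp1* are higher in every null library, *Cox6c* and *Sdha* lower, *Ndufa10* higher by a ratio of 1.07, and *Ndufa4l2* runs from 17.6 to 59.3 FPKM within the null libraries.

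Complex I, the largest complex, had 38 structural members with means from 13.0 to 349 FPKM (median 78.7). Their median log2 difference was -0.062, with 30 below 0 and 8 above, and 0 of 38 had even an unadjusted p under 0.05 in limma. The 38 were placed by symbol. They include *Ndufa4*, which gave the highest mean and whose product is now placed in complex IV, and its paralog *Ndufa4l2*. The genes of the catalytic core showed differences to both sides of 0. *Ndufs7*, part of the ubiquinone site, differed by 0.073, *Ndufv1*, which binds NADH and flavin, by 0.002, and *Ndufs1*, an iron-sulfur subunit, by -0.035.

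Among the accessory subunits the most negative difference was that of *Ndufc1*. It was read at 88.1, 81.4 and 92.5 FPKM in the controls and at 73.6, 62.9 and 88.6 FPKM in the null libraries (log2 difference -0.231, SE 0.121, adjusted p = 0.673 in limma). Null 1 and null 2 were below all controls and null 3 lay between control 1 and control 3, an order that returned in many members. *Ndufb2* (-0.167), *Ndufb3* (-0.156), *Ndufb11* (-0.148) and *Ndufs6* (-0.102) had differences of the same sign, with adjusted p from 0.70 to 0.717 in limma. *Ndufa10* was read at 59.9, 64.1 and 61.3 FPKM in the controls and at 65.0, 68.2 and 64.3 FPKM in the null libraries. The lowest null library was just above the highest control, by less than the SD inside either group (difference 0.092, SE 0.064, adjusted p = 0.732 in limma).

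*Ndufa4* had the highest mean of the symbols starting with Nduf, 349 FPKM, and its product is now placed in complex IV. It was read at 372, 350 and 372 FPKM in the controls and at 334, 291 and 373 FPKM in the null libraries (difference -0.139, SE 0.102). Its paralog *Ndufa4l2*, known from the response to low oxygen and from pericytes, was the most variable structural member. It was read at 35.4, 22.5 and 24.4 FPKM in the controls and at 17.6, 59.3 and 35.7 FPKM in the null libraries, so that the lowest and the highest of the 6 values were both in null libraries (difference 0.312, SE 0.385, interval -0.571 to 1.194). Other pericyte genes did not run in this order: *Rgs5* was read at 16.8, 10.7 and 14.6 FPKM in the null libraries and was lowest in null 2, where *Ndufa4l2* was highest. *Ndufa4l2* made up 5.0% to 16.95% of the summed FPKM of the pair.

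The 8 assembly factors of complex I, proteins that help to build the complex and do not stay in it, were read at far lower levels than the subunits, from 5.02 to 27.2 FPKM. Their median difference was -0.063. *Atp5sl*, whose product is counted here with complex I assembly in spite of its symbol, had the most negative value (26.7, 31.3 and 27.6 FPKM in the controls, 28.6, 26.4 and 22.8 FPKM in the null libraries, difference -0.140, SE 0.102). *Ndufaf3* differed by -0.056, and *Ndufaf4*, at 0.045, was the 1 factor above 0.

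Complex II, which is also an enzyme of the citric acid cycle, consists of 4 subunits that were read at similar levels of 53.3 to 79.9 FPKM. All 4 differences were below 0, with a median of -0.066. *Sdha*, the flavoprotein that oxidizes succinate (chr13:74322254-74350280, minus strand), was read at 83.1, 84.2 and 81.3 FPKM in the controls and at 74.9, 75.3 and 80.5 FPKM in the null libraries. The highest null library was just below the lowest control, and the ratio of means was 0.928 (difference -0.109, SE 0.0637, 95% interval -0.255 to 0.037, adjusted p = 0.693 in limma). The iron-sulfur subunit *Sdhb* differed by -0.032 and the membrane anchors *Sdhc* and *Sdhd* by -0.011 and -0.101, and the groups overlapped for each of them.

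The 9 members of complex III had means from 47.5 to 187 FPKM and a median difference of -0.071, with 8 of 9 below 0 and 0 of 9 at an unadjusted p under 0.05 in limma. *Uqcrh*, the hinge protein that joins cytochrome c1 to cytochrome c, had the most negative value: 176, 144 and 179 FPKM in the controls and 134, 138 and 173 FPKM in the null libraries (difference -0.170, SE 0.125). Control 2 lay between the lower and the higher null values. *Uqcrq*, the member with the highest mean, differed by -0.071 (SE 0.0776), and *Uqcrc1*, a core protein, was the 1 member above 0, at 0.048.

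Complex IV gave the lowest p among the structural subunits. *Cox6c*, a small subunit without tissue forms (chr15:35925886-35938246, minus strand), was read at 288, 265 and 280 FPKM in the controls and at 225, 207 and 257 FPKM in the null libraries. All null values were below all controls, the nearest being null 3 and control 2. The group means were 278 ± 11.6 and 230 ± 25.1 FPKM (SD, n = 3 each), a ratio of 0.828. The difference of -0.278 (SE 0.0939, 95% interval -0.493 to -0.062) had an unadjusted p of 0.0176 and an adjusted p of 0.519 in limma, so it did not pass the test. The exact two-sided permutation p was 0.1, the smallest it can be. Over all 13 members of the complex the median difference was -0.032. *Cox5a*, a subunit on the matrix side with the smallest p among those above 0, was read at 90.4, 84.2 and 87.1 FPKM and at 94.0, 86.7 and 99.5 FPKM (difference 0.097, SE 0.0741), and *Cox8a*, the member with the highest mean (411.5 FPKM), differed by -0.068.

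Several complex IV subunits come in tissue forms, and the retina used the general forms in both genotypes. *Cox6a1* was read at 236 to 267 FPKM and differed by -0.028, while its heart and muscle form *Cox6a2* was read at 0 to 0.167 FPKM, or at most 0.0626% of the pair. *Cox8a* had a partner, *Cox8b*, at 0 to 0.404 FPKM, or at most 0.0939% of the pair. *Cox8c* and *Cox7b2*, known mainly from testis, were listed at 0 in every library.

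Other tissue forms were measurable. *Cox7a1*, the heart and muscle form, was read at 2.61, 1.62 and 2.11 FPKM in the controls and at 1.77, 2.62 and 3.40 FPKM in the null libraries, or 1.73% to 2.72% of the sum with *Cox7a2* (difference 0.264, SE 0.252, interval -0.313 to 0.842). *Cox7a2* itself differed by -0.132 (SE 0.151). *Cox6b2*, the testis form, was 3.65% to 4.83% of the sum with *Cox6b1*, with differences of -0.004 and -0.094. *Cox4i2*, a subunit 4 form known from lung and from oxygen sensing, was read at 24.7, 18.4 and 21.2 FPKM in the controls and at 22.1, 22.6 and 25.0 FPKM in the null libraries (difference 0.123, SE 0.112). *Cox7b* differed by -0.032. The 10 skeletal muscle markers in the table summed to 3.38 to 3.90 FPKM in the controls and 3.85 to 4.86 FPKM in the null libraries, most of it *Mylpf*, with 5 of them, including *Myh4* and *Tnnt3*, below 0.1 FPKM on average, and their part in the muscle forms was not tested.

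**Figure D3:**
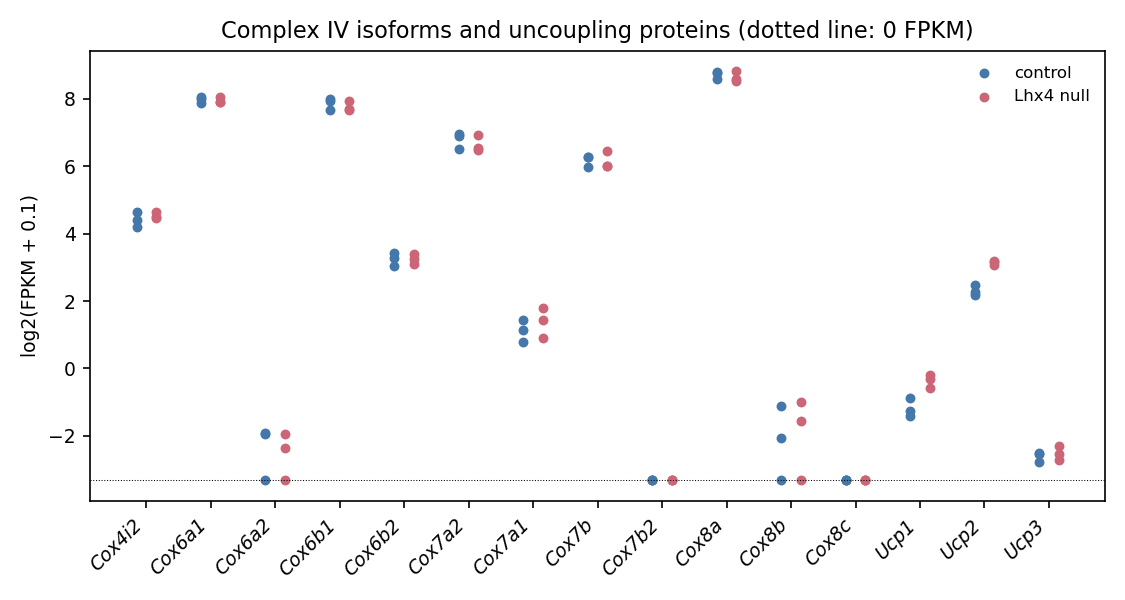
Level of complex IV tissue forms and of the 3 uncoupling proteins on log2(FPKM + 0.1), 1 point per library; the dotted line is 0 FPKM. The general forms lie far above the tissue forms in both groups, *Cox7b2* and *Cox8c* sit on the floor, and *Ucp2* and *Ucp1* are the genes whose groups do not overlap.

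Complex V held the most abundant member. *Atp5b*, the catalytic beta subunit of the ATP synthase head, was read at 540, 544 and 511 FPKM in the controls and at 549, 545 and 540 FPKM in the null libraries (difference 0.035, SE 0.0785, 95% interval -0.145 to 0.215). *Atp5a1*, the alpha subunit that alternates with it, differed by 0.035 as well (SE 0.0713). The 3 genes for the proton-carrying c ring, *Atp5g1*, *Atp5g2* and *Atp5g3*, differed by -0.051, 0.037 and 0.003. The smallest p belonged to *Atp5k*, the small e subunit of the membrane part, at 178, 172 and 173 FPKM in the controls and 153, 153 and 172 FPKM in the null libraries (difference -0.131, SE 0.074, adjusted p = 0.689 in limma). Over the 16 members the median was -0.052, with 10 below 0. *Atp5s*, a coupling factor at 4.70 FPKM, and *Cox7a1*, at 2.35 FPKM, were the members nearest above the limit of 1 FPKM, and *Ucp1* (0.515 FPKM) and *Cox8b* (0.191 FPKM) the genes nearest below it.

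Members of the complexes moved together from library to library, and in the values as deposited the order did not follow genotype. Each gene's log2 value was set against its own mean over the 6 libraries, and the median of these deviations was taken over the members. It was 0.067, -0.074 and 0.093 in control 1, 2 and 3, and -0.101, -0.098 and 0.103 in null 1, 2 and 3, while for all genes it stayed between -0.013 and 0.023. Control 2 thus lay with null 1 and null 2, and null 3 with control 1 and control 3. Inside each group the medians ran in the order of relative depth, from control 2 (76.9%) to control 3 (100%) and from null 1 (46.7%) to null 3 (65.9%). Over all 6 libraries they did not, as null 3 was above every control. The part of depth in this pattern was not tested. The group means of the library medians were 0.029 (SD 0.0899, n = 3) and -0.032 (SD 0.117, n = 3), so the difference between groups was smaller than the SD inside either group.

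The pattern was shared by all 5 complexes. Of the 80 structural subunits, 74 (92.5%) had their lowest control value in control 2, beside 41.7% of all genes, and 73 (91.2%) had their highest null value in null 3, beside 31.7% of all genes. Summed over the members, the values were 9858, 8838 and 9862 FPKM in the controls and 8764, 8684 and 9986 FPKM in the null libraries, or 2.66%, 2.42% and 2.65% and 2.42%, 2.27% and 2.67% of all FPKM. *Ucp2* went the other way inside each group: it was highest in control 2 among the controls and lowest in null 3 among the null libraries. Counts of members therefore turned on single libraries: without null 3, 32 members were lower with no overlap (36.0%, against 12.3% of all genes), and without control 2, 19 were (21.3%, against 12.6%). Without null 1, 7 were higher with no overlap (against 18.1% of all genes).

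The members are short transcripts, and length moved with the same pattern. Their median transcript length was 971 bases, against 3097 bases for all genes tested, and 46 of 89 were under 1000 bases, as were 6.36% of all genes tested. When the trend of each library on transcript length was removed, the library medians of the members became 0.024, 0.010 and 0.040 in the controls and -0.008, -0.079 and 0.007 in the null libraries, a range of 0.119 in place of 0.204. Every control median was then above every null median, the nearest being control 2 (0.010) and null 3 (0.007). The group difference stayed at about the same size, with group means of 0.025 (SD 0.0151) and -0.027 (SD 0.0458). It was then larger than the SD inside either group, and 10 members (11.2%) were then lower with no overlap, against 7.13% of all genes. Removing the trend on GC content left the order of the libraries as it was, with medians of 0.082, -0.063 and 0.099 and of -0.115, -0.128 and 0.111. The 97 genes of cytosolic ribosomal proteins, another group of short and abundant transcripts that was added after the values were seen, had medians of 0.094, -0.194 and 0.116 in the controls and -0.217, 0.036 and 0.168 in the null libraries, so control 2 and null 1 were low there too but null 2 was not. The part of transcript length in the pattern was not tested further.

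**Figure D4:**
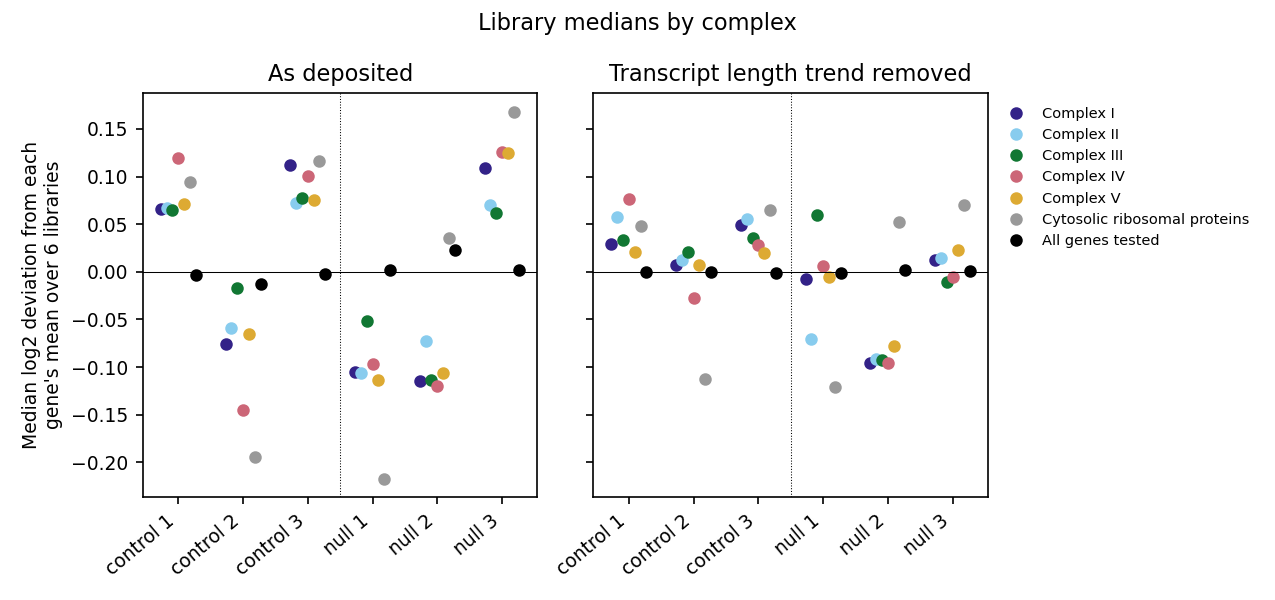
Median log2 deviation from each gene's own mean over the 6 libraries, by complex, for cytosolic ribosomal proteins and for all genes tested, with values as deposited (left) and after removal of each library's trend on transcript length (right). On the left control 2, null 1 and null 2 are low and the other libraries high in every complex, and on the right the range narrows.

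The 13 protein-coding genes of the mitochondrial genome supply the other subunits of complexes I, III, IV and V. They did not share this order in the controls and shared it in part within the null libraries. They summed to 30120, 31780 and 30570 FPKM in the controls and to 30970, 32900 and 33130 FPKM in the null libraries. Control 2 had the highest control value for 10 of 13, where it had the lowest for 74 of 80 nuclear subunits. Null 3 had the highest null value for 7 of 13, beside 73 of 80 nuclear subunits, and null 1 the lowest for 9 of 13, beside 37 of 80. The median log2 difference was 0.071, with 11 of 13 above 0 and 2 (15.4%) below it, beside 46.7% of all genes below 0. For 4 genes (30.8%) the groups did not overlap (*mt-Co1*, *mt-Cytb*, *mt-Nd4* and *mt-Nd2*, all higher in the null libraries), beside 8.1% of all genes, and for *mt-Co1*, the catalytic subunit of complex IV, the values were 4111, 4347 and 4178 FPKM and 4350, 4542 and 4644 FPKM. With limma 0 of 13 had an adjusted or an unadjusted p under 0.05. These transcripts come from 1 genome and are not independent.

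Other genes of the organelle were taken from lists. Among 107 tested genes of 6 lists, the 13 mitochondrially encoded ones included, 0 had an adjusted p under 0.05 in limma, 6 (5.61%) were lower at an unadjusted p under 0.05, beside 3.55% of all genes, 1 (0.935%) was higher, beside 4.6%, and the median difference was -0.009. The lowest p among the lower genes were those of *Coa6*, a complex IV assembly factor that was read at 10.7, 8.18 and 10.4 FPKM in the controls and at 7.93, 7.51 and 7.35 FPKM in the null libraries (difference -0.349, SE 0.116, adjusted p = 0.508 in limma), and of *Coq3*, an enzyme of ubiquinone synthesis (difference -0.345, SE 0.13). Among the higher genes they were those of *Suclg2*, a subunit of a citric acid cycle enzyme (difference 0.370, SE 0.152), and of *Mdh2*, the mitochondrial malate dehydrogenase, read at 149, 157 and 146 FPKM and at 170, 164 and 165 FPKM (difference 0.142, SE 0.0664).

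By list, the medians were close to 0. They were -0.028 over 17 regulators of mitochondrial biogenesis, -0.045 over 29 assembly factors of complexes III, IV and V, and -0.026 over 10 further assembly factors of complexes I and II. They were -0.026 over 18 genes of cytochrome c, ubiquinone synthesis and carriers and 0.006 over 20 genes of the citric acid cycle and pyruvate dehydrogenase. The 17 regulators ran from -0.370 to 0.307, with 11 below 0, and 0 had an adjusted p and 1 (*Polg2*, -0.278) an unadjusted p under 0.05 in limma. Of the regulators named after their values were seen, *Ppargc1b* (-0.370) and *Esrrg* (0.307) were the extremes, and *Ppargc1a*, a coactivator of mitochondrial genes, differed by -0.238 and *Esrrb* by -0.186. *Nrf1* was read at 21.7, 19.1 and 22.2 FPKM in the controls and at 18.8, 22.9 and 20.1 FPKM in the null libraries (difference -0.032), and *Gabpa* differed by -0.098. The groups overlapped for each of these but *Polg2*.

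The promoters of the members were searched for the recognition letters of NRF1 and GABPA and of 3 other motifs. NRF1 and GABPA are regulators known to act on respiratory chain promoters. In the 250 bases before the RefSeq start (GRCm38.p6), which were found for 72 of the 89 members, the letters of NRF1 (GCGCA, any base, GCGC) occurred on either strand in 14 members (19.4%), beside 8.29% of the 11367 tested genes with a promoter and 4.23% of all 27025 genes with one. The letters CCGGAAG of GABPA occurred in 13 members (18.1%), beside 13.9% of tested genes and 7.83% of all genes. The letters CCAAT occurred in 31 members (43.1%, beside 39.99% and 37.5%), TATAAA in 5 (6.94%, beside 8.29% and 14.3%) and the YY1 letters AAGATGG in 1 (1.39%, beside 4.88% and 5.18%). Matches of letters are a description and not sites of binding.

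Windows of 3 members show the range. *Ucp2* is printed because it passed the test, *Sdha* because its groups did not overlap and its window holds NRF1 letters, and *Uqcrh* because it had the most negative difference of complex III and holds GABPA letters. *Cox6c* is named only. Each runs 5' to 3' on the strand of the gene up to the base before the start of the GENCODE gene, with matches in capitals. In *Sdha* ATTGG is CCAAT on the other strand and each longer run is NRF1 letters, in *Uqcrh* CTTCCGG is CCGGAAG on the other strand beside CCAAT, and in *Ucp2* there was no match to any of the 5 motifs. The windows lie at chr7:100493108-100493336 (plus strand), chr13:74350281-74350490 (minus strand) and chr4:116075072-116075320 (minus strand), all of GRCm38.p6.
Ucp2: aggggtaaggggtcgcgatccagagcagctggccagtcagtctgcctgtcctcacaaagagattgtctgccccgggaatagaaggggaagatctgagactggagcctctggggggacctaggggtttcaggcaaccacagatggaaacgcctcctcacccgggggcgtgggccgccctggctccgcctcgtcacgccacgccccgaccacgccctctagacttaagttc
Sdha: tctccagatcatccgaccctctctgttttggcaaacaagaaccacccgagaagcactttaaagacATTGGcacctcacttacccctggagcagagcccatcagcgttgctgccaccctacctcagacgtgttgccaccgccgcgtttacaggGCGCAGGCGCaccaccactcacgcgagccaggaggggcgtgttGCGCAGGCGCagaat
Uqcrh: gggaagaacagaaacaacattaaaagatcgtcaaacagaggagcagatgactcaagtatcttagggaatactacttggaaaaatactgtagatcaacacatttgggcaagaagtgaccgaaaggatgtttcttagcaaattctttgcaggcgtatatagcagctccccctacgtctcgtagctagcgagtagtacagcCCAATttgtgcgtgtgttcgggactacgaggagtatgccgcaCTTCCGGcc

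Some members are uncertain for reasons of counting. For 5 (*Ndufs3*, *Uqcrb*, *Atp5o*, *Atp5h* and *Atp5l*) another annotated transcript matched at 97% identity or more over at least 50% of the transcript, so fragments could be split between copies, and for 4 (*Atp5o*, *Ndufa13*, *Ndufaf2* and *Ndufb6*) over 20% of the exonic bases overlapped another gene, with no statement on the use of strand. None of these was among the members without overlap between groups.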

How the data were processed

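RNA-seq of P7 retina was analysed in 6 libraries, 3 per genotype, each from 1 mouse. The authors mapped paired reads to GRCm38 with TopHat2 and estimated FPKM per gene with Cufflinks; versions are not given in the sources used here. The deposited table holds 1 FPKM column per library and no counts, so depth per library is known here only in relative terms, from the steps of low values, and no counting interval is given.

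The 15200 genes whose mean reached 0.1 FPKM were tested on log2(FPKM + 0.1) in R 4.3.3 with limma 3.58.1 (lmFit, eBayes with a mean-variance trend), *Lhx4* null minus control, with Benjamini-Hochberg adjustment over all genes tested and a threshold of 0.05. A fold change on this scale understates that of low genes. Replicates are separate mice. Single values were tested with an exact two-sided permutation test (SciPy 1.17.1), which cannot go below 0.1 with 3 against 3. Calls were tested on simulated data first. Members, gene lists and tests were chosen with earlier results of these data known. Named genes were *Lhx4*, complex II, the uncoupling proteins, the tissue form pairs, the 2 highest members of each complex, members past the threshold, the 8 lower and 8 higher with the smallest p, the 2 nearest 1 FPKM on each side, and the 2 lowest p in each direction of the mitochondrial lists; any other gene was named after its values were seen. A gene of the rule is not reported here. Transcript length, GC content and overlap came from GENCODE vM21 (21603 genes matched, 89 of 89 members), near-identical copies from BLAST 2.17.0, and promoters from RefSeq. The loess trends used a span of 0.3. Alternatives were other pseudocounts, filters, scalings, no trend, a replicate block, each library left out, and removal of length or GC trends.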

Additional observations from a re-analysis of the deposited data

How the results depend on the processing

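Of the summaries computed with 16 alternative settings of the fit and 3 of membership, the median difference of the members and of each complex kept its sign where all 6 libraries were used. The 1 member past the threshold (*Ucp2*) was lost (count 0) with no filter on low values and with no mean-variance trend. The count was also 0 with members of at least 10 FPKM, and with assembly factors and Ucp genes left out. These settings of membership take *Ucp2* itself out of the set, so their count was fixed beforehand. With libraries left out the count was 0 to 1. Members lower without overlap numbered 4 with median of ratios scaling (4.49%, against 6.97% of all genes) and 4 with quantile normalization (4.49%, against 6.61%). They numbered 10 with the length trend removed (11.2%, against 7.13%) and 6 with the GC trend removed (6.74%, against 6.96%). With libraries left out they numbered 2 to 32: 32 without null 3 (36.0%, against 12.3%) and 19 without control 2 (21.3%, against 12.6%). Those higher numbered 1 with either scaling (against 7.22% and 7.53% of all genes), 1 at 10 FPKM and 1 with assembly factors left out. With libraries left out they numbered 2 to 7 (7 without null 1, against 18.1% of all genes). At an unadjusted p under 0.05 in limma, 0 to 8 were lower with libraries left out (8 without null 3), and 1 to 2 higher (2 without null 1). The higher count was 2 with members of at least 0.1 FPKM, 0 at 10 FPKM and 0 with assembly factors left out. Shares of all genes at this cut are not given for these settings. With libraries left out the medians ran from -0.149 to 0.010 for complex IV, 0.031 to 0.096 for mitochondrially encoded genes (0.0 with quantile normalization, 0.148 with the GC trend removed), -0.092 to 0.031 for biogenesis regulators, -0.110 to -0.012 for assembly factors of complexes III to V, -0.067 to 0.026 for those of I and II, and -0.012 to 0.037 for the citric acid cycle; the causes were not tested. Single genes with differences near 0 changed sign: *Cox6b2* (0.023, length), *Atp5a1* (-0.002, GC) and *Cox7b* (0.004, GC), and, over the libraries left out, *Cox6a1* (-0.078 to 0.010), *Cox6b2* (-0.113 to 0.087), *Cox7b* (-0.181 to 0.042), *Sdhb* (-0.074 to 0.021), *Sdhc* (-0.080 to 0.040), *Ndufaf3* (-0.132 to 0.027), *Ndufa4l2* (-0.102 to 0.773) and *Cox8b* (-0.366 to 0.895).

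With the replicate number as a block, 0 members were past the threshold (*Ucp2* adjusted p = 0.0976 in limma) and 2 were lower at an unadjusted p under 0.05; no other summary moved. The numbers do not pair the samples: deviations of same-numbered libraries correlated at -0.127, -0.000198 and 0.162 over all genes tested, and null 1 correlated best with control 2 (0.236), so the samples share only a number.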
